A study of Mus musculus with 12 samples.

Results

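Genes of arginine, nitric oxide, itaconate and tryptophan metabolism, 9 in all, were followed in dendritic cells grown from mouse marrow. They were chosen by name, with earlier results of these data known. Taken were the probe sets annotated to Nos2, Acod1, Arg2, Ass1, Slc7a2, Gch1, Ido1, Il4i1 and Kynu. These 9 genes had 17 of the 45101 probe sets in the deposited table, and the table covered 18193 genes in all. Messenger RNA was measured on 12 single-colour Affymetrix arrays, 1 for each culture. Marrow of 6 to 8 week old BALB/c or BL6 mice was cultured for 10 days, and every culture, controls included, received GM-CSF at 20 ng/ml, the growth factor that drives dendritic cell development in such cultures. The 6 conditions were no retinoid, all-trans-retinoic acid (RA, 10 nmol as labelled) and Ro41-5253 (Ro, 100 nmol as labelled), each without LPS and with LPS at 1 ug/ml. RA activates retinoic acid receptors, Ro blocks the alpha form of this receptor, and LPS is a cell wall component of Gram-negative bacteria that is sensed by a Toll-like receptor. Each condition had 2 arrays, replicate 1 from BALB/c and replicate 2 from BL6, so strain and replicate number cannot be told apart. The labels do not say whether cultures of 1 strain came from separate animals, so a p-value reflects only how much these cultures varied, which may be technical. Nor do they say when LPS was added.

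Activated myeloid cells use these enzymes to turn amino acids and a citrate cycle intermediate into signals. Inducible nitric oxide synthase (Nos2) makes nitric oxide and citrulline from arginine. Slc7a2 carries arginine into the cell, argininosuccinate synthase (Ass1) starts the rebuilding of arginine from citrulline, and Gch1 begins the synthesis of tetrahydrobiopterin, a cofactor of the synthase. The arginases, mitochondrial Arg2 and cytosolic Arg1, compete for the same arginine. Acod1 makes itaconate from cis-aconitate. Ido1 opens the kynurenine pathway of tryptophan breakdown, kynureninase (Kynu) acts further along it, and Il4i1 is a secreted oxidase of aromatic amino acids.

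Signals below are the deposited probe set intensities, which are linear and have no absolute unit, so they are compared between arrays and not between genes. The level taken as background is the median probe set of the same array, which lay between 21.4 and 41.8. Changes are differences of log2(signal + 16) from limma fits, given with their standard error (SE). They are relative to the median change of the 12849 entries tested, because LPS moved that median by -0.41 and Ro by 0.22. An entry is a gene, or a set of genes that share a probe set, and it passed at a Benjamini-Hochberg adjusted p under 0.05, which tests the change before this median is subtracted. "Rose" and "fell" are used of entries that passed. Ass1 and Il4i1 are represented by probe sets annotated to several genes, Ass1/Gm5424 and Il4i1/Il4i1b, so their values cannot be assigned to one gene. Gm5424 is a transcribed pseudogene on chromosome 10 and Il4i1b overlaps Il4i1 on chromosome 7 (GRCm38.p6). In RNA of whole cultures, fewer cells of a type and less RNA per cell cannot be told apart.

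With LPS, 7 of the 9 genes were higher over the 3 retinoid conditions together (6 arrays against 6), and Kynu was lower. Among all entries tested, 11.1% were higher and 48.0% lower. Quantile normalization turned the split of all calls from 18.8% higher to 45.6% higher, and with it 8 of the 9 genes were higher and none lower. Percentages of all entries, here and below, are from the fits described above, not from quantile normalization or another setting. Within conditions (2 arrays against 2), 6 of the 9 were higher without retinoid, 7 with RA and 5 with Ro, where 8.13%, 6.58% and 6.01% of entries were higher. Those splits went from 17.8%, 18.6% and 20.0% higher to 42.5%, 42.5% and 43.9% under quantile normalization. The median relative change of the 9 genes was 2.41. Acod1, Nos2 and Slc7a2 had the largest changes of the 9.

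**Figure D1:**
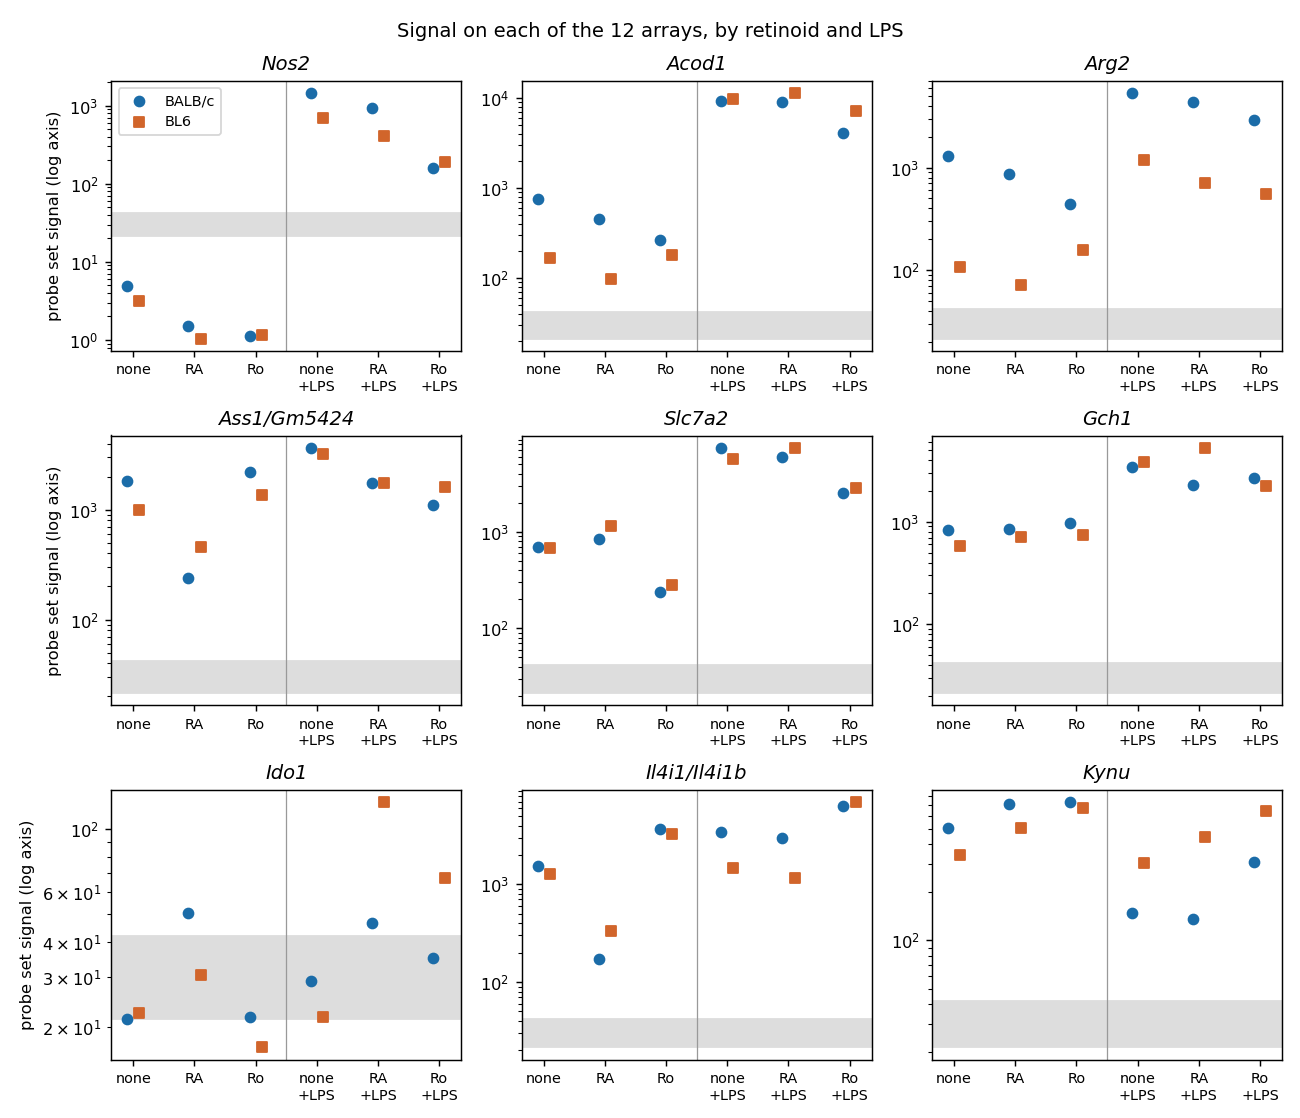
Each panel plots the deposited signal of 1 gene (log axis, scales differ between panels) on the 12 arrays, with the retinoid conditions without LPS left of the grey line and with LPS right of it. Circles are BALB/c, squares are BL6, and the grey band spans the array medians from 21.4 to 41.8. Nos2 lies below the band on all 6 arrays without LPS and above it on all 6 with LPS, while Ido1 stays near the band on most arrays.

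The nitric oxide synthase gene Nos2 (chromosome 11, 78920787 to 78960226) was read by a single probe set. Without LPS its signal in BALB/c cultures was 4.88 with no retinoid, 1.51 with RA and 1.12 with Ro, and in BL6 cultures it was 3.12, 1.04 and 1.16 in the same order. With LPS it reached 1439, 942 and 159 in BALB/c, and 705, 413 and 189 in BL6. All 6 arrays without LPS lay below their median and all 6 with LPS above it, and among the LPS arrays those with Ro were the lowest in both strains. Nos2 rose by 5.20 ± 0.34 (SE, 6 arrays against 6, limma adjusted p = 6.9e-07), and against the array medians of cultures without LPS the rise was at least 13.9-fold. It rose in each retinoid condition taken alone, by 6.20 ± 0.38 without retinoid, 5.62 ± 0.38 with RA and 3.81 ± 0.38 with Ro (SE, 2 arrays against 2). The size of these values depends on the added 16, since the signals without LPS are near 0. The gene passed the filter on low values through its LPS arrays only.

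Slc7a2 (chromosome 8, 40862341 to 40922070), the arginine carrier, was well above background on every array by its strongest probe set. In BALB/c cultures without LPS the signal was 693 with no retinoid, 851 with RA and 235 with Ro, and with LPS it was 7294, 5918 and 2492. The BL6 cultures had 685, 1149 and 280 without LPS, and 5720, 7396 and 2866 with it. The Ro cultures were the lowest of their strain both without and with LPS. Slc7a2 rose with LPS by 3.48 ± 0.14 (SE, 6 against 6, limma adjusted p = 5.0e-08), an 11.2-fold rise relative to the median entry. By condition the rise was 3.72 ± 0.22 without retinoid, 3.13 ± 0.22 with RA and 3.64 ± 0.22 with Ro. All 4 of its probe sets rose in a fit over every probe set, by 2.83 to 4.95, so the direction was shared while the size was not.

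The probe set of Ass1/Gm5424 read 1838 with no retinoid, 240 with RA and 2210 with Ro in BALB/c cultures without LPS, and 3673, 1742 and 1109 with LPS. In BL6 the values were 988, 453 and 1353 without LPS, and 3240, 1736 and 1612 with it. Without LPS the RA culture was the lowest in both strains, whereas with LPS the Ro culture was. The entry rose with LPS by 1.52 ± 0.38 (SE, 6 against 6, limma adjusted p = 0.0245). This call was lost under 7 of 24 alternatives, BALB/c alone among them, with an adjusted p of up to 0.258. It rose by 1.87 ± 0.37 without retinoid, a call lost under 3 of 23 alternatives (adjusted p up to 0.143), and by 2.74 ± 0.37 with RA, and with Ro the change was -0.02 ± 0.37 and did not pass. A dimmer probe set annotated to Ass1 alone, between 23.2 and 170, did not pass with LPS (0.91 ± 0.34, limma adjusted p = 0.224).

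Gch1 (chromosome 14, 47153895 to 47189413) makes the first step towards the synthase's cofactor. Without LPS its signals lay close together, 823, 849 and 961 with no retinoid, RA and Ro in BALB/c and 574, 717 and 737 in BL6. With LPS they were 3380, 2297 and 2694 in BALB/c, and 3847, 5260 and 2211 in BL6, all above every array without LPS. Gch1 rose by 2.41 ± 0.22 (SE, 6 against 6, limma adjusted p = 1.2e-05) and passed in each retinoid condition, with 2.88 ± 0.35, 2.54 ± 0.35 and 1.86 ± 0.35 for no retinoid, RA and Ro. The call with Ro was lost under 3 of 23 alternatives, with an adjusted p of up to 0.0843. Its other, dimmer probe set gave 0.93 ± 0.22 and did not pass (limma adjusted p = 0.0586).

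Arg2 (chromosome 12, 79130788 to 79156301), the mitochondrial arginase, differed between the strains. In BALB/c its signal was 1312 with no retinoid, 868 with RA and 445 with Ro without LPS, and 5323, 4375 and 2934 with LPS. In BL6 it was 108, 70.6 and 158 without LPS, and 1174, 702 and 553 with it. Every BALB/c array was above the BL6 array of the same condition, and the BL6 arrays with LPS fell within the range of BALB/c arrays without it. Arg2 rose with LPS by 2.91 ± 0.24 (SE, 6 against 6, limma adjusted p = 4.6e-06), and the second probe set of the gene gave 3.22 ± 0.20. In the fit with no replicate block, which leaves the strain difference in the residual, the rises of 3.16 ± 0.42 without retinoid, 3.08 ± 0.42 with RA and 2.54 ± 0.42 with Ro no longer passed.

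Acod1 (chromosome 14, 103047012 to 103056573) makes itaconate. Without LPS its signal in BALB/c was 765 with no retinoid, 456 with RA and 267 with Ro, and in BL6 it was 167, 97.7 and 184. With LPS it was 9271, 9084 and 4128 in BALB/c and 9871, 11348 and 7175 in BL6. The lowest array with LPS lay well above the highest without it, and with LPS the Ro cultures were the lowest in both strains. Acod1 rose by 5.29 ± 0.36 (SE, 6 against 6, limma adjusted p = 8.5e-07), a 39.1-fold rise relative to the median entry. It rose by 5.18 ± 0.62, 5.86 ± 0.62 and 4.87 ± 0.62 with no retinoid, RA and Ro.

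The proximal promoters of Acod1 and Gch1 are shown because both genes rose with LPS averaged over the retinoid conditions and the 250 bases before the start of each held a match to 1 of 6 searched motifs. They are RefSeq sequences of GRCm38.p6, at chr14:103046762-103047011 on the plus strand for Acod1 and chr14:47189414-47189663 on the minus strand for Gch1. Capitals mark the match. For Acod1 the match is AGGTCA, at bases -112 to -107 from the start. These letters are only a part of a retinoic acid receptor (RAR) site, not a whole site. For Gch1 the match is to the NF-kappaB motif, at bases -10 to -1.
Acod1: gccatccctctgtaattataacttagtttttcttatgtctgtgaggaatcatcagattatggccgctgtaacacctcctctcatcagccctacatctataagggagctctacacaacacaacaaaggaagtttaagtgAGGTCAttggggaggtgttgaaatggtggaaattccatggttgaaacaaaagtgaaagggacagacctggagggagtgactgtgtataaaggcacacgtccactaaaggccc
Gch1: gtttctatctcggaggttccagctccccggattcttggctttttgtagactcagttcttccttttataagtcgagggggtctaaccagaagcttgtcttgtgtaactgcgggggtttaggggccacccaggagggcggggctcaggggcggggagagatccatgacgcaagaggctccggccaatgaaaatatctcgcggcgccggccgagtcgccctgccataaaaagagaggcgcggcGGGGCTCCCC
Both strands were searched for the NF-kappaB motif and the interferon response element ISRE (GAAA, any 2 bases, GAAA). Also searched were the interferon gamma activated site GAS (TTC, any 3 bases, GAA) and the STAT6 element (TTC, any 4 bases, GAA). The last of the 6 were the AP-1 site (TGANTCA) and the partial RAR site (AGGTCA). The same stretch may match more than 1 of these motifs. Of 32851 promoters of this length, 7.25% held the NF-kappaB motif, 2.98% the ISRE and 7.02% the GAS. The STAT6 element was in 5.85%, the AP-1 site in 6.75% and the partial RAR site in 14.0%. A match describes the letters only. The windows of Ass1 and Il4i1 held none of the 6. Those 4 genes of the 9 had a sequence in the table; Nos2, Arg2, Slc7a2, Ido1 and Kynu did not.

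Ido1 (chromosome 8, 24584133 to 24596952), which opens the kynurenine pathway, stayed near background. In BALB/c the signal was 21.3 with no retinoid, 50.6 with RA and 21.7 with Ro without LPS, and 29.0, 46.8 and 35.2 with LPS. In BL6 it was 22.4, 30.4 and 16.9 without LPS, and 21.8, 125 and 67.5 with it. The RA culture was the highest in both strains with and without LPS, and the array with RA and LPS in BL6 was the highest of all. With LPS the change was 1.00 ± 0.24 and did not pass (SE, 6 against 6, limma adjusted p = 0.0516). It passed in the fit over every probe set (adjusted p = 0.0472).

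Kynureninase (Kynu, chromosome 2, 43555258 to 43683048) was the only one of the 9 that was lower with LPS. Its signal in BALB/c was 509 with no retinoid, 716 with RA and 732 with Ro, and with LPS it was 148, 136 and 309. BL6 cultures had 341, 506 and 677 without LPS, and 306, 443 and 641 with it. The BALB/c arrays with LPS were far below those without, while in BL6 the same pairs were close. The relative change over both strains was -0.52 ± 0.27 (SE, 6 against 6, limma adjusted p = 0.0113), and 2 SE around it reached 0.03. The call was lost under quantile normalization, under a common trimmed mean and in BL6 alone, where the relative change was 0.18.

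The Il4i1/Il4i1b probe set read 1533 with no retinoid, 174 with RA and 3682 with Ro in BALB/c cultures without LPS, and 3398, 2994 and 6281 with LPS. In BL6 it read 1275, 330 and 3261 without LPS, and 1465, 1157 and 6929 with it. In both strains, with and without LPS, the order was Ro, then no retinoid, then RA. The entry rose with LPS by 1.90 ± 0.37 (SE, 6 against 6, limma adjusted p = 0.00416). Within conditions the rise passed with RA (3.28 ± 0.44) but not without retinoid (1.19 ± 0.44) or with Ro (1.27 ± 0.44). The interaction of RA with LPS did not pass for it (2.09 ± 0.62, limma adjusted p = 0.808). A probe set annotated to Il4i1 alone stayed between 12.7 and 29.4, above the array's median on 2 of 12 arrays, and did not pass in any of these comparisons.

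**Figure D2:**
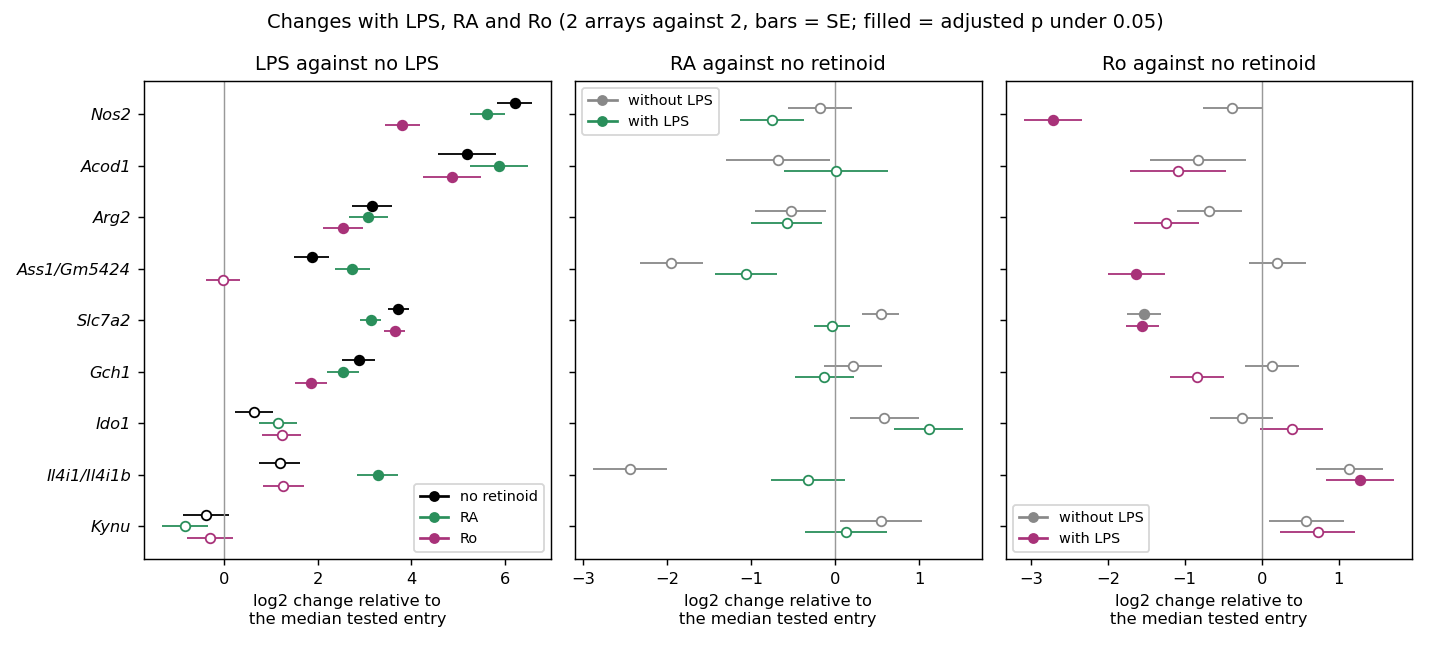
The log2 change of each gene relative to the median tested entry is plotted for LPS within each retinoid condition (left), for RA (middle) and for Ro (right), each from 2 arrays against 2, with bars of 1 SE and filled points where the adjusted p of the change before subtraction of the median was under 0.05. The LPS change of Nos2 falls from 6.20 without retinoid to 3.81 with Ro, no point of the RA panel is filled, and Slc7a2 is at -1.53 without LPS and -1.55 with LPS in the Ro panel.

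**Figure D3:**
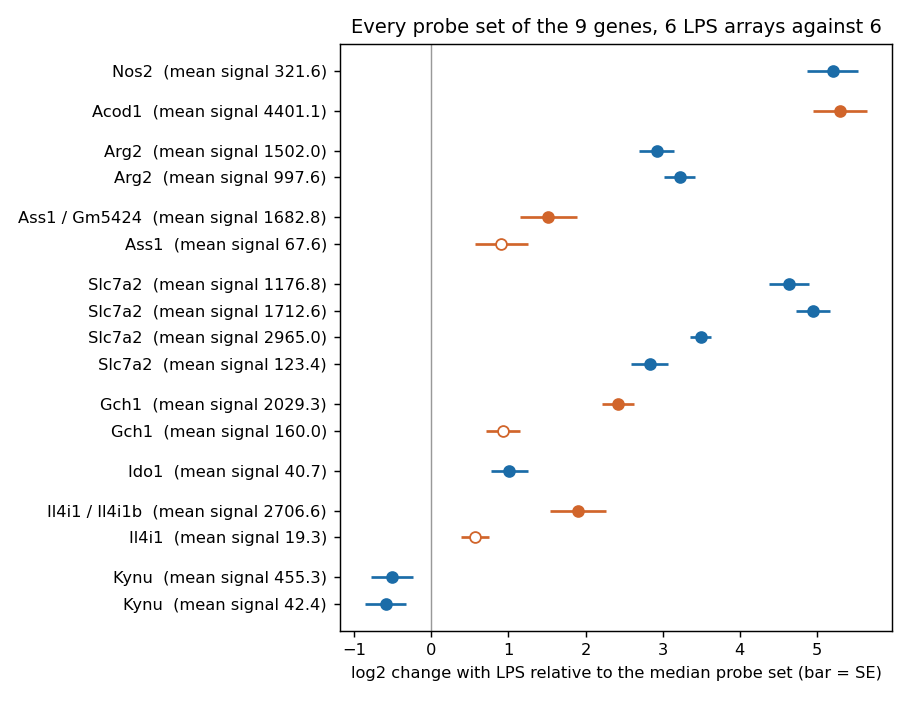
Each of the 17 probe sets of the 9 genes is plotted by its log2 change with LPS relative to the median probe set (6 arrays against 6, bars of 1 SE, filled where the adjusted p over all 23575 probe sets tested was under 0.05), with its mean signal in brackets. Colours only separate neighbouring genes. The dimmer probe sets of Ass1 (0.91), Gch1 (0.93) and Il4i1 (0.57) lie well below the brighter ones, and the 4 of Slc7a2 span 2.83 to 4.95.

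RA was the comparison with the fewest calls. Averaged over cultures with and without LPS, none of the 9 genes passed, and neither did any of the 12849 entries (1052 had an unadjusted p under 0.05, 3 of the 9 genes among them). Without LPS 15 entries passed (0.117%), none of them among the 9. The largest of the 9 changes there were those of Il4i1/Il4i1b (-2.44 ± 0.44, limma adjusted p = 0.0624) and Ass1/Gm5424 (-1.95 ± 0.37, adjusted p = 0.0798), each 2 arrays against 2. Il4i1/Il4i1b was -3.05 in BALB/c and -1.83 in BL6, and Ass1/Gm5424 was -2.88 in BALB/c and -1.03 in BL6. In a fit of the compared arrays alone 3 of the 9 passed, where 896 of all entries did. With LPS no entry passed (1218 had an unadjusted p under 0.05), and Ass1/Gm5424 had -1.06 ± 0.37, Ido1 1.11 ± 0.41 and Nos2 -0.75 ± 0.38. For Slc7a2 with LPS the value was -0.04, and 2 SE ran from -0.47 to 0.39.

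Slc7a2 and, in cultures with LPS, Nos2 were lower with Ro. Averaged over cultures with and without LPS (4 arrays against 4), 3 of the 9 passed, against 18.1% of all entries (13.8% higher and 4.25% lower). Slc7a2 had -1.54 ± 0.17 (SE, limma adjusted p = 0.00106) and Nos2 had -1.55 ± 0.42 (adjusted p = 0.0457), while Il4i1/Il4i1b had 1.21 ± 0.45 (adjusted p = 0.0474). The Nos2 call was lost under 16 and the Il4i1/Il4i1b call under 18 of 24 alternatives, quantile normalization among both, and with no replicate block 1 of the 9 passed. The Slc7a2 call was lost under 1 of the 24, BL6 alone. Under quantile normalization the share of higher calls among all entries moved from 76.5% to 51.4%. Of the 4 probe sets of Slc7a2, 3 fell with Ro, with changes of -2.17 to -1.53, and the dimmest had -1.02 ± 0.29 and did not pass (adjusted p = 0.0744).

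Without LPS, Slc7a2 alone of the 9 passed with Ro (-1.53 ± 0.22, limma adjusted p = 0.00951, 2 arrays against 2), where 2.59% of all entries did. This call was lost when the probe sets were averaged, with no replicate block, and when any 1 of the 4 compared arrays was left out. Under quantile normalization the share of higher calls went from 54.1% to 38.8%. With LPS 4 of the 9 passed, against 21.1% of entries (15.6% higher and 5.53% lower). Nos2 had -2.71 ± 0.38 (adjusted p = 0.00217), with -3.18 in BALB/c and -2.26 in BL6. Ass1/Gm5424 had -1.63 ± 0.37 (adjusted p = 0.0275), Slc7a2 -1.55 ± 0.22 (adjusted p = 0.00353) and Il4i1/Il4i1b 1.28 ± 0.44 (adjusted p = 0.0294). The dimmer probe set annotated to Ass1 alone differed by strain. In BALB/c it read 89.3 with LPS alone and 23.3 with Ro and LPS, but in BL6 84.6 and 117.5. The Nos2 and Slc7a2 calls held in all 23 alternatives, those of Ass1/Gm5424 and Il4i1/Il4i1b were lost under 5 and 6 of them. With no replicate block 2 of the 9 passed. Under quantile normalization the share of higher calls went from 73.8% to 53.8%. Acod1 (-1.09 ± 0.62), Arg2 (-1.24 ± 0.42) and Gch1 (-0.84 ± 0.35) did not pass. The second probe set of Arg2 did pass with LPS (-1.56 ± 0.35, adjusted p = 0.0248).

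The test of whether Ro changed the LPS response called 0.615% of entries and none of the 9 genes. Nos2 had -2.35 ± 0.53 (limma adjusted p = 0.0898), and passed under quantile normalization and under a common trimmed mean. Ass1/Gm5424 had -1.85 ± 0.53 (adjusted p = 0.174) and Slc7a2 -0.04 ± 0.31, with 2 SE from -0.65 to 0.57. For Slc7a2 the other 3 probe sets had -1.67, -1.56 and -1.02 and did not pass, so the value near 0 belongs to its brightest probe set. The interaction of RA with LPS called no entry (745 had an unadjusted p under 0.05).

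RA and Ro were also compared with each other, at the labelled amounts, which differ (10 and 100 nmol), so these are the values of both cultures side by side rather than a comparison at 1 dose. Averaged over LPS, Slc7a2 was 1.80 ± 0.17 higher with RA (4 arrays against 4, limma adjusted p = 1.2e-04) and Il4i1/Il4i1b was lower (-2.58 ± 0.45, adjusted p = 0.00156), where 19.4% of entries passed. The Il4i1/Il4i1b signals did not overlap between RA and Ro arrays, but the call was lost in BALB/c alone. Without LPS 3 of the 9 passed, against 7.44% of entries: Il4i1/Il4i1b (-3.56 ± 0.44), Slc7a2 (2.08 ± 0.22) and Ass1/Gm5424 (-2.13 ± 0.37), each in all 23 alternatives. With LPS 3 passed, against 15.9%: Nos2 (1.97 ± 0.38, adjusted p = 0.0102), Slc7a2 (1.51 ± 0.22) and Il4i1/Il4i1b (-1.61 ± 0.44). The Il4i1/Il4i1b call was lost under 4 of 23 alternatives, no replicate block among them, with an adjusted p of up to 0.145. Nos2 lost its call without the BALB/c array of RA with LPS or without that of Ro with LPS, and without the latter 1 of the 9 passed. The order of Nos2 with LPS was therefore no retinoid, RA, Ro, with RA and no retinoid not told apart (limma adjusted p = 0.609). Under quantile normalization the share of higher calls moved from 27.2% to 48.8% averaged, from 34.0% to 51.3% without LPS and from 31.5% to 49.8% with LPS. These comparisons share arrays with those against no retinoid.

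Between the strains Arg2 was the only one of the 9 to pass, 2.41 ± 0.24 higher in BALB/c (6 arrays against 6, limma adjusted p = 4.9e-05). This is a 5.33-fold difference relative to the median entry. Of all entries 11.3% were higher in BALB/c and 4.07% lower. Both probe sets of Arg2 passed (2.40 and 2.35), and the call held in all 21 alternatives. Under quantile normalization the share of calls higher in BALB/c went from 73.6% to 43.5%. No gene of the 9 passed the test of a strain difference in the LPS response (0.132% of entries did). The largest values were Acod1 (-1.71 ± 0.46, adjusted p = 0.182), lower by this amount in BALB/c, and Kynu (-1.33 ± 0.31, adjusted p = 0.103).

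Arg1 (chromosome 10, 24915207 to 24927470), the cytosolic arginase, is no member of the 9 but draws on the same arginine. In BALB/c its signal was 267 with no retinoid, 1882 with RA and 3.53 with Ro without LPS, and 8715, 4713 and 40.6 with LPS. In BL6 it was 124, 4713 and 3.93 without LPS, and 3489, 4088 and 40.1 with it. The Ro arrays without LPS were below background and those with LPS near it, and no other array was as low. Arg1 fell with Ro averaged over LPS (-5.20 ± 0.72, limma adjusted p = 0.00182), and without LPS the fall was at least 4.98-fold (adjusted p = 0.00775). RA raised it without LPS (3.94 ± 0.49, adjusted p = 0.0130), and with LPS its change was -0.40 ± 0.49 and did not pass. The interaction of RA with LPS was -4.36 ± 0.70 and did not pass (limma adjusted p = 0.536). LPS raised it by 5.32 ± 0.49 without retinoid (adjusted p = 7.8e-05).

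Around these genes, the list of arginine supply and use (29 of 34 genes tested) had 8 genes higher and 10 lower with LPS, against 11.1% and 48.0% of all entries, with a median relative change of 0.11, where that of all entries is 0 by construction. The lower calls include Oaz1 (0.11 ± 0.08), an inhibitor of polyamine synthesis, and Sat1 (-0.00 ± 0.11), which acetylates polyamines, whose falls were no larger than that of the median entry. Under quantile normalization 10 were higher and 9 lower. Slc7a11, the cystine and glutamate exchanger, rose by 3.25 ± 0.38, while spermidine synthase (Srm) had -2.56 ± 0.24 and Gamt, which makes creatine, -1.71 ± 0.18. With Ro 8 were higher and 2 lower (6 and 2 under quantile normalization), against 13.8% and 4.25% of all entries. The amino acid carrier gene Slc7a5 rose by 1.94 ± 0.35 and Slc7a8, another carrier, had -1.94 ± 0.43, a call that was lost without 1 array (adjusted p up to 0.0774).

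None of 6 tested genes of tetrahydrobiopterin synthesis was higher with LPS (11.1% of all entries were) and 3 were lower (48.0% of all entries), under quantile normalization too. Pts, the step after Gch1, had -2.00 ± 0.24, the recycling enzyme Qdpr -1.71 ± 0.17 and Spr, the last step, -0.68 ± 0.20. The Pts signal ran from 782 to 1262 on arrays without LPS and from 88.7 to 360 with it, so the groups did not overlap. The other 3, Pcbd1 (0.23 ± 0.26), Pcbd2 (0.10 ± 0.14) and Gchfr (0.19 ± 0.29), did not pass. With Ro only Spr passed (0.65 ± 0.24), and not under quantile normalization.

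Of 29 tested genes listed under itaconate and the citrate cycle, 2 were higher and 19 lower with LPS (4 and 18 under quantile normalization), against 11.1% and 48.0% of all entries, with a median relative change of -0.35. The isocitrate dehydrogenases Idh1 (-2.23 ± 0.23), Idh2 (-2.06 ± 0.18) and Idh3a (-1.89 ± 0.19), which act on isocitrate, and fumarase Fh1 (-1.86 ± 0.22) were the largest falls. Idh1 read 2518 to 5106 on arrays without LPS and 315 to 910 with it. With Ro 5 were higher and 1 lower (1 and 3 under quantile normalization), where 13.8% and 4.25% of all entries were. Fh1 had 0.80 ± 0.27, Idh3a 0.62 ± 0.23 and malate dehydrogenase Mdh2 -0.80 ± 0.18, and each of these calls was lost without 1 array.

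In the tryptophan and kynurenine list 1 of 14 tested genes was higher and 10 lower with LPS, but 6 lower under quantile normalization, and the median relative change was -0.43. Of all entries 11.1% were higher and 48.0% lower. Kmo, which makes the substrate of kynureninase, had -2.27 ± 0.43 and Haao, the step after kynureninase, -1.84 ± 0.27. Got2, which can transaminate kynurenine, had -0.92 ± 0.16, and Nampt of NAD salvage rose by 2.33 ± 0.18. With Ro 4 were higher, against 13.8% of all entries (3 higher and 1 lower under quantile normalization), among them Kmo (2.27 ± 0.53), Haao (1.17 ± 0.33) and Kyat3 (0.98 ± 0.30). Kmo signals with Ro and LPS were 156 in BALB/c and 684 in BL6, against 21.8 to 36.9 on the other LPS arrays. The calls of Haao and Kyat3 were lost without 1 array.

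Kynurenines and products of Il4i1 are ligands of the aryl hydrocarbon receptor. Of 12 tested genes of this receptor and of the antioxidant response 5 were higher and 3 lower with LPS (6 and 2 under quantile normalization), against 11.1% and 48.0% of all entries. Srxn1 (1.90 ± 0.19), Txnrd1 (1.40 ± 0.15) and Gclm (1.34 ± 0.24) act against oxidative stress and Arnt (1.64 ± 0.22) is the receptor's partner. The 3 lower were Ahrr (-1.02 ± 0.26), the receptor gene Ahr itself (-0.50 ± 0.30) and Nfe2l2 (0.01 ± 0.10). The fall of Nfe2l2 was no larger than that of the median entry. Averaged over LPS, 2 passed with Ro, where 18.1% of all entries did: Ahrr (0.84 ± 0.32) and Txnrd1 (0.43 ± 0.18), neither under quantile normalization. In cultures with LPS 1 was higher and 2 lower with Ro, against 15.6% and 5.53% of all entries. The higher gene was Ahrr (1.48 ± 0.36). The lower genes, named after their values were seen, were Tiparp (-2.00 ± 0.26, limma adjusted p = 0.00204) and Gclc (-1.11 ± 0.26, adjusted p = 0.0435), of glutathione synthesis. Tiparp and Gclc passed the interaction of Ro with LPS (-2.11 ± 0.37 and -2.22 ± 0.37, limma adjusted p = 0.0470 and 0.0387). Of all entries 0.615% did. That test contains the same difference between the same arrays, so it is no separate support for these genes.

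Of 27 tested regulators of these genes, 18 were higher and 6 lower with LPS (18 and 4 under quantile normalization), against 11.1% and 48.0% of all entries, with a median of 1.31. They included the interferon factor Irf7 (4.82 ± 0.30), the feedback inhibitor Socs3 (3.69 ± 0.27) and the NF-kappaB subunits Nfkb2 (2.29 ± 0.21) and Rel (2.20 ± 0.21). With Ro 1 was higher and 3 lower (0 and 5 under quantile normalization), against 13.8% and 4.25%. Cebpb, a transcription factor of myeloid cells, had -1.99 ± 0.13 (limma adjusted p = 3.0e-05), from 3062 to 9148 on arrays with no retinoid to 934 to 2262 with Ro. The LPS co-receptor gene Cd14 had -1.22 ± 0.18 and Hif1a -1.19 ± 0.19.

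**Figure D4:**
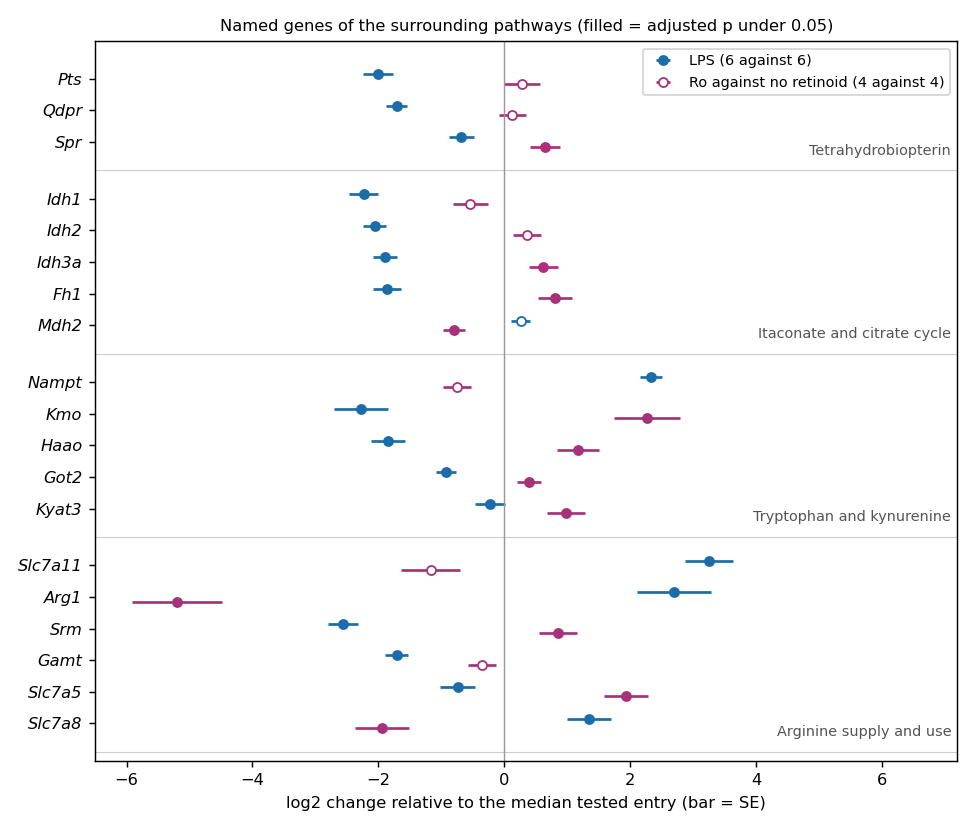
The log2 changes of the named pathway genes relative to the median tested entry are plotted for LPS (blue, 6 arrays against 6) and for Ro against no retinoid (purple, 4 against 4), with bars of 1 SE and filled points where the adjusted p of the change before subtraction of the median was under 0.05. Pts, Qdpr, Idh1, Kmo and Haao lie left of 0 with LPS, and Arg1 with Ro is farthest left at -5.20.

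Marker genes moved with the conditions too, and their part in the results was not tested. Of 12 markers of conventional dendritic cells 9 were above the median of every array, and their summed signal ran from 36742 to 58751 over all arrays. Without LPS this sum was 37372 to 46807 with RA, 49444 to 51631 with no retinoid and 54781 to 58751 with Ro. With LPS it was 36742 to 41482, 50351 to 51513 and 55175 to 57515 in the same order. Of 11 macrophage and monocyte markers on the array 9 were above the median on all arrays. Their sum was 12608 to 15631 with Ro and LPS, against 40343 to 45901 with LPS alone and 47396 to 56671 with RA and LPS. Without LPS their sum was 49525 to 51200 with Ro, 55425 to 58779 with no retinoid and 71373 to 72771 with RA. Nos2, Slc7a2 and Arg1 were lower with Ro and LPS. With Ro alone Slc7a2 (-1.53) and Arg1 (-3.49) were lower too. The list includes Cd14, which read 8145 in BALB/c and 5545 in BL6 with Ro and LPS. The sum of 12 granulocyte markers was 3906 to 10176 with Ro and LPS, 6799 to 11555 with LPS alone, 17189 to 24750 with neither, and 30228 to 62689 with RA. The sum of 6 plasmacytoid dendritic cell markers was 1791 to 3763 without LPS and 7974 to 11551 with it. Of these markers 3 were above the median on every array, and Ly6d and Ccr9 on none. The list includes Bst2, whose profile was the most similar to that of Gch1 (0.21), a gene that rose with LPS. A summed signal follows its brightest genes, so this sum does not show that each marker rose. The sum of 6 fibroblast and stroma markers was 60.8 to 476 without LPS and 193 to 700 with it. That of 8 eosinophil, basophil and mast cell markers ran from 77.6 to 4149, highest with Ro alone in BL6. Among them Fcer1a and Mcpt4 were above the median on no array. T cell, B cell and erythroid sums stayed at most at 166, 194 and 54.9, and Cd3d, Cd79a, Ebf1, Hba-a1 and Alas2 were above the median on no array.

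For each of the 9 genes the 3 genes of most similar profile were found as those with the smallest root mean square difference of centred log2(signal + 16) over the 12 arrays, which share the same cultures. For Nos2 these were Ppfia3 (0.38), Hilpda (0.40) and Hamp (0.41), against a median of 2.78 over all 12429 genes compared. Acod1 was nearest to Cxcl3 (0.35), Il1b (0.36) and Cxcl2 (0.39). The Il4i1/Il4i1b profile was nearest to Ccr7 (0.32), the receptor of dendritic cell migration, and Fscn1 (0.39), a cytoskeletal gene of mature dendritic cells, followed by Rabgap1l (0.48). Slc7a2 was nearest to Hmox1 (0.42), Rab20 (0.53) and Ifi204 (0.55), Gch1 to Bst2 (0.21), Cflar (0.26) and Lhx2 (0.33), and Ass1/Gm5424 to Cbln1 (0.55), Niban2 (0.55) and Clic4 (0.60). No gene came closer to Arg2 than Pik3ap1 (0.94), Havcr1 (0.97) and Gatm (0.98), and its median was 2.02. Kynu was nearest to Cep41 (0.25), Ebna1bp2 (0.25) and Atp6v1g2 (0.26), and Ido1, close to background, to E230013L22Rik (0.27), Cyp26b1 (0.32) and Tm4sf1 (0.34). The medians were 0.77 for Kynu and 0.86 for Ido1, against 2.78 for Nos2, so small distances were more common for Kynu and Ido1. Among the 9 genes themselves the closest pair was Nos2 and Acod1 (0.86) and the farthest Nos2 and Kynu (3.14).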

How the data were processed

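Total RNA of 12 dendritic cell cultures was measured on single-colour arrays. The deposited values are probe set intensity values on a linear scale (0.0195 to 17488), and MAS5 is named without a version in the submitters' processing notes. Array medians differed 1.96-fold and trimmed means ran from 158 to 263. Detection calls were not used here, and the number of arrays limits the precision.

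The table held 45101 probe sets: 34945 with 1 annotated gene, 932 with more, 9160 unnamed and 64 array controls. Tests used log2(signal + 16), on which changes of dim genes come out too small. Probe sets had to exceed the median of their array on at least 2 of 12 arrays, and each entry was represented by its kept probe set of highest mean (12849 entries, 419 of them of several genes). All 17 probe sets of the 9 genes were kept.

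limma 3.58.1 in R 4.3.3 (lmFit, eBayes with an intensity trend, Benjamini-Hochberg adjustment, threshold 0.05) fitted 2 models: retinoid, LPS and strain as additive terms for averaged comparisons, and 6 conditions with strain for single conditions and interactions with LPS, and strain by LPS added to the first. Strain was a block, because a replicate number is a strain; strain differences of 15 condition pairs correlated with r of 0.316 to 0.708 across entries. A batch that follows strain cannot be told apart from it. The scripts were tested on simulated data. A "fold at least" compares the bright group with the array medians of a group below them, without subtraction of the median change.

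The 9 genes, the pathway and marker lists and the alternatives were chosen with earlier results of these data known. Named genes are the 9, Arg1, and from each list up to 4 genes past the threshold with the largest change with LPS and up to 3 with Ro. There were 25 alternatives (scaling, added constant, filter, probe set choice, variance trend, block, 1 strain, only the compared arrays, and leaving out each array). Figures were drawn with matplotlib 3.10.9 from tables written by pandas 2.3.3 (Python 3.11.15).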

Additional observations from a re-analysis of the deposited data

How the results depend on the processing

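Over 3501 recomputed results of the 9 genes, 3291 kept their direction and side of the threshold, 77 lost a call, 30 gained one, 102 moved and 1 reversed, Kynu with LPS in BL6 alone (0.18 relative). The number of the 9 genes past the threshold stayed within 1.5 times under all alternatives run for LPS (all 4 comparisons), RA averaged, RA with LPS, RA against Ro without LPS, the interaction of RA with LPS, and strain. For RA without LPS it was 0, became 3 with only the compared arrays, and ran from 0 to 1 with 1 array left out. For Ro averaged it was 3, with 1 under no filter, no intensity trend, no replicate block and BALB/c alone, 0 in BL6 alone, and 1 to 3 with 1 array left out. For Ro without LPS it was 1, with 0 under the mean of probe sets and under no replicate block, 2 with only the compared arrays, and 0 to 1 with 1 array left out. For Ro with LPS it was 4, with 2 under no replicate block and 2 to 4 with 1 array left out. RA against Ro gave 2 averaged and 1 in BALB/c alone, and with LPS 3, or 1 to 3 with 1 array left out. The interaction of Ro with LPS gave 0, and 1 (Nos2) under quantile normalization and a common trimmed mean; that of strain with LPS gave 0, or 0 to 1 with 1 array left out. The causes were not tested, other than that fewer arrays or 1 strain leave fewer degrees of freedom. A replicate number is a strain, so no replicate block means no strain term.

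Counts over all entries moved more. With 1 array left out they ran from 3112 to 6154 for LPS without retinoid (5855 with all arrays), 1838 to 4563 for LPS with RA (4560), 1771 to 4300 for LPS with Ro (3855), 0 to 2 for RA averaged (0), 1 to 22 for RA without LPS (15), 0 to 108 for RA with LPS (0), 869 to 2597 for Ro averaged (2323), 60 to 411 for Ro without LPS (333), 863 to 3301 for Ro with LPS (2716), 1508 to 2596 for RA against Ro averaged (2493), 419 to 1095 without LPS (956) and 1130 to 2053 with LPS (2049), 0 to 1 for the RA by LPS interaction (0), 5 to 154 for the one of Ro (79), 1252 to 1974 for strain (1979) and 0 to 49 for its interaction with LPS (17). With no replicate block they were 2680 for LPS with RA, 2274 for LPS with Ro, 0 for RA without LPS, 915, 57 and 951 for Ro averaged, without and with LPS, 1457, 423 and 882 for RA against Ro in the same order, and 11 for the interaction of Ro with LPS. With only the compared arrays they were 2952 for LPS with RA, 896 and 4 for RA without and with LPS, 1141 for Ro without LPS and 1903 for RA against Ro without LPS. In 1 strain alone (BALB/c, BL6) they were 135 and 188 for Ro averaged and 541 and 579 for RA against Ro, and in BL6 alone 3718 for LPS averaged and 1 for RA. Quantile normalization gave 4 for RA averaged, 27 for RA without LPS, 162 for the interaction of Ro with LPS (214 with a common trimmed mean) and 8 for that of strain (5). An added constant of 64 gave 10 for RA averaged and 24 without LPS, and one of 1 gave 7 for RA without LPS, 189 for Ro without LPS, and 35 and 5 for these interactions. With no filter, RA without LPS gave 7 and the interactions 44 and 9; with no intensity trend, 6 and 31 for the first 2; the mean of probe sets gave 44 for the interaction of Ro with LPS. Testing every probe set separately, 23575 in all, gave up to 13770, since more features were tested.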
